A study of Mus musculus with 9 samples.

Results

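The genes described here encode the colony-stimulating factor receptors and the ligands of the CSF1 receptor, together with the receptor chains for GM-CSF, G-CSF and IL-3. They were listed by name, with earlier results of these data known. They are Csf1r, Csf1, Il34, Csf2ra, Csf2rb, Csf2rb2, Csf3r and Il3ra. All 8 were among the 23238 gene symbols counted, and 6 of them were among the 12292 genes with enough counts to be tested. Il34 and Il3ra were too low to be tested and are given as counts.

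RNA was read from microglia of female wild-type C57BL/6N mice, sorted from brain as cells that carried CD45, CD11b and P2ry12 on their surface. The model, an NMO-like lesion after neuromyelitis optica, was made by infusing 3 µl of patient IgG at 50 mg/ml with 5% human complement into 1 striatum. There were 9 libraries, with 3 each from Normal mice, from NMO mice given IgG and complement, and from NMO+CL mice that also received clodronate liposomes into the peritoneum 6 h before the lesion, an agent that depletes circulating monocytes and macrophages. The NMO and NMO+CL mice were sampled at 1 day, the mice were 12 weeks old, the Normal mice had no treatment, and each library pooled 3 mice. Groups given control IgG or empty liposomes were not analysed here, so injury, antibody and complement cannot be told apart in the NMO mice, and neither can clodronate and its carrier in the NMO+CL mice.

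CSF1R is the receptor tyrosine kinase on which microglia depend for survival, and it binds CSF1 and IL-34, the latter made in the brain mainly by neurons. GM-CSF, IL-3 and IL-5 each bind an alpha chain of their own, which pairs with a shared beta chain that starts JAK2 and STAT5 signalling. Mice carry an extra beta chain gene: Csf2rb encodes the shared chain, whereas the product of Csf2rb2 serves IL-3 alone. CSF3R binds G-CSF and is best known from neutrophils.

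The pair of beta chain genes are neighbours on chromosome 15 and lie on opposite strands, Csf2rb at chr15:78325752-78353847 on the plus strand and Csf2rb2 at chr15:78282507-78305721 on the minus strand of GRCm38. Since the main result below rests on reads being told apart between them, an aligned stretch of 75 coding bases, which is 1 read length, is shown for each from the GENCODE M21 transcripts, with capitals at the 6 bases where they differ. The Csf2rb stretch spans chr15:78349057-78349131 and the Csf2rb2 stretch chr15:78284317-78284391.
Csf2rb: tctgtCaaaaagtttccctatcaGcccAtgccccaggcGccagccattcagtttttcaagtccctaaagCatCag
Csf2rb2: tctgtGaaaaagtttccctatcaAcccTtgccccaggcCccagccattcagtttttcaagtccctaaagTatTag
The last 3 letters of the Csf2rb2 line are its stop codon, while the reading frame of Csf2rb goes on. The coding sequences, of 2691 and 2637 bases, were 95.3% identical over 2629 aligned bases, and 413 of their 75-base windows were the same in both, which is 15.8% of those in Csf2rb and 16.1% of those in Csf2rb2. These libraries, however, read transcripts at their 3′ ends, and there the genes differed more. In the longest protein-coding transcript, the last 500 bases were 80.4% identical, and 0 of 426 windows of 75 bases were shared exactly. The ends of other transcripts, and alignments with mismatches, were not checked in this way. The stretches shown lie 1870 and 1810 bases before the transcript ends.

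The beta chain genes were both higher in NMO+CL microglia than in Normal microglia, by about the same factor, and they were the only members that edgeR's test on the filtered counts called in any of the 3 comparisons. Levels are CPM, a count as a share of its library's total after TMM scaling of library sizes. Csf2rb stood at 81.0, 155 and 131 CPM in the 3 Normal libraries, at 108, 114 and 189 CPM in the NMO libraries and at 230, 294 and 224 CPM in the NMO+CL libraries. Csf2rb2 stood at 32.5, 41.8 and 36.0 CPM in Normal, at 41.9, 38.7 and 39.7 CPM in NMO and at 89.7, 75.2 and 59.7 CPM in NMO+CL. For both genes every NMO+CL library was above every Normal and every NMO library, whereas the Normal and NMO libraries overlapped.

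**Figure D1:**
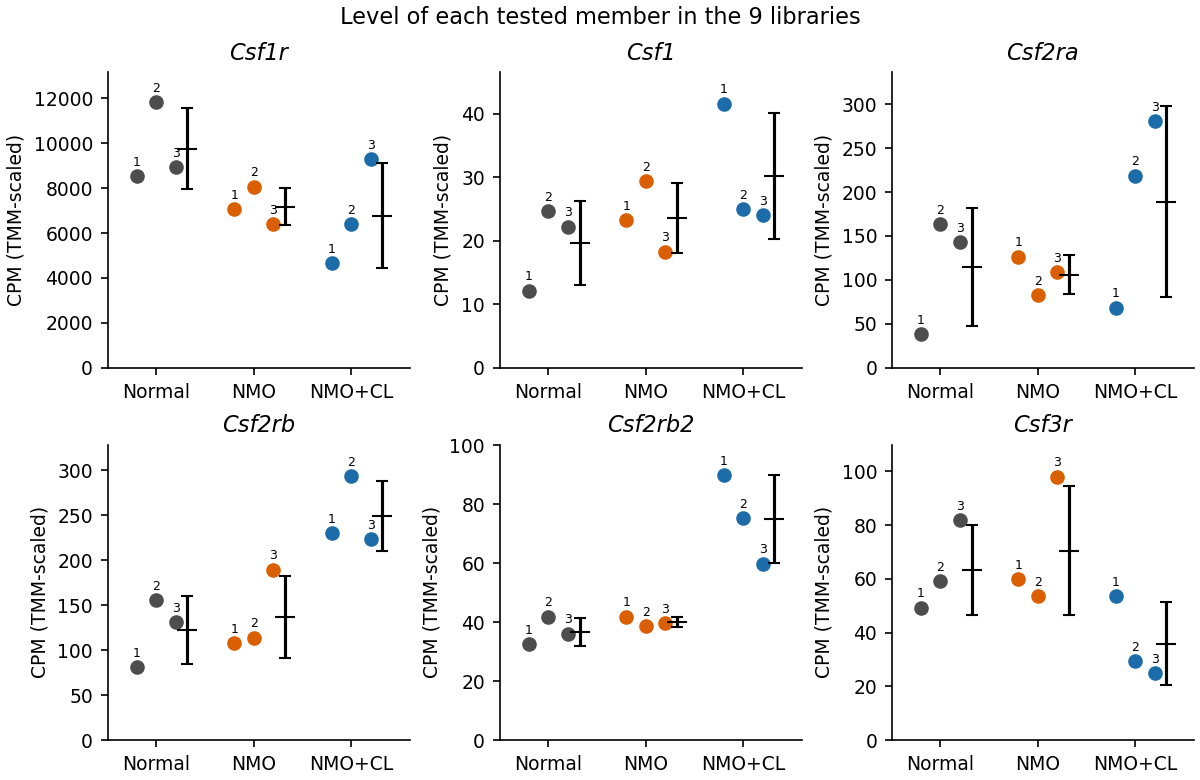
Level of the 6 tested members, in TMM-scaled CPM, in each library (points, with the replicate number) of Normal, NMO and NMO+CL microglia; bars give the mean and SD of 3 libraries, and each panel has its own scale starting at 0. The 3 NMO+CL libraries lie above all others for Csf2rb and Csf2rb2, and for no other member do they stand apart.

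Csf2rb averaged 123 ± 38.0 CPM in Normal, 137 ± 45.5 CPM in NMO and 249 ± 38.7 CPM in NMO+CL (SD, n = 3 libraries). It rose 2.03-fold in NMO+CL against Normal (log2 difference 1.02, SE 0.262, adjusted p = 0.0192, edgeR's quasi-likelihood test with Benjamini-Hochberg adjustment). Csf2rb2 averaged 36.8 ± 4.71, 40.1 ± 1.63 and 74.9 ± 15.0 CPM and rose 2.04-fold in the same comparison (log2 difference 1.03, SE 0.254, adjusted p = 0.0155). Against NMO, NMO+CL microglia had log2 differences of 0.86 for Csf2rb (95% interval 0.31 to 1.42, adjusted p = 0.125) and 0.90 for Csf2rb2 (0.37 to 1.43, adjusted p = 0.0941), which did not pass. NMO against Normal gave 0.16 (-0.39 to 0.71) and 0.12 (-0.41 to 0.66).

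The calls against Normal rested on few libraries. Csf2rb had an adjusted p of 0.100 without Normal replicate 1, 0.0616 without Normal replicate 3 and 0.0914 without NMO+CL replicate 2, and Csf2rb2 had 0.0715, 0.0667 and 0.0562 without these and 0.0694 without NMO+CL replicate 1, with log2 differences between 0.80 and 1.07 for Csf2rb and between 0.88 and 1.02 for Csf2rb2. With the reads of both genes added together, the beta chain rose 2.03-fold in NMO+CL against Normal (log2 difference 1.02, SE 0.233, adjusted p = 0.00894), and it differed by 0.87 from NMO (SE 0.232, adjusted p = 0.0757).

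The split of reads between the genes was alike in the group means. Csf2rb2 held 23.8 ± 4.21% of the reads of the pair in Normal microglia, 23.6 ± 5.56% in NMO microglia and 23.2 ± 4.24% in NMO+CL microglia (SD, n = 3), and an exact two-sided permutation test over libraries gave p = 0.9 for NMO against Normal, p = 1 for NMO+CL against NMO and p = 0.5 for NMO+CL against Normal. The share ran from 17.3% in NMO replicate 3 to 28.7% in Normal replicate 1, a range wider than any difference between groups. With 3 libraries against 3, that test cannot go below 0.1.

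**Figure D2:**
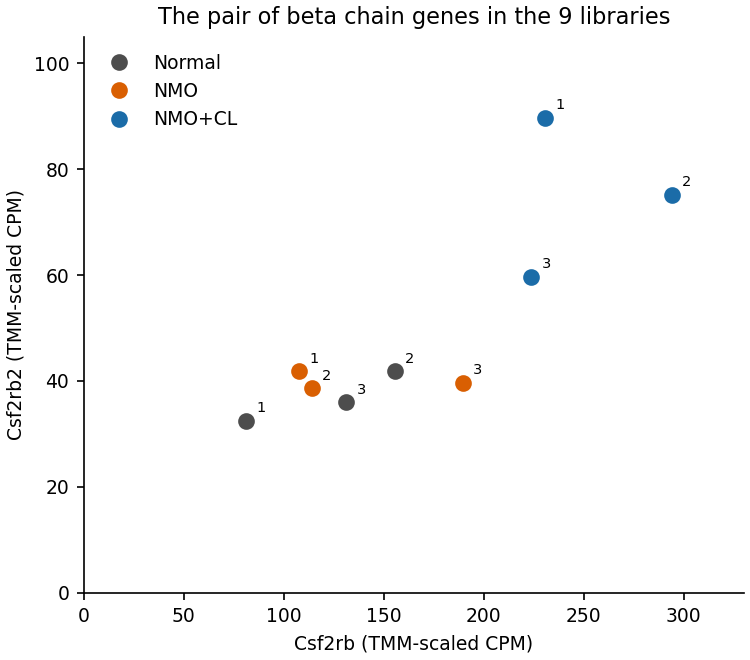
Csf2rb (x axis) against Csf2rb2 (y axis), both in TMM-scaled CPM, in the 9 libraries, coloured by group and numbered by replicate. The NMO+CL libraries have more of both genes, and the Normal and NMO libraries share the lower left.

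Markers of other cells that such a sort could hold were read beside the beta chain. The neutrophil list, of which 10 of 11 genes were analysed, summed to 41.5 to 536 CPM in Normal, 102 to 384 CPM in NMO and 270 to 1318 CPM in NMO+CL. Of its 9 tested genes 0 were called in any comparison by edgeR, with 0, 1 and 2 at an unadjusted p under 0.05 in NMO against Normal, NMO+CL against NMO and NMO+CL against Normal, DESeq2 called 0, and limma-voom called 2 in the last. The group medians of that sum were 47.3, 264 and 508 CPM in the order Normal, NMO and NMO+CL. In replicate order that sum was 536, 41.5 and 47.3 CPM in Normal, and 264, 102 and 384 CPM in NMO. It was 1318, 270 and 508 CPM in NMO+CL. The beta chain, the reads of both genes together, stood at 113, 197 and 167 CPM in Normal. It stood at 149, 153 and 229 CPM in NMO and at 320, 369 and 283 CPM in NMO+CL. The 9 monocyte markers summed to 31.5 to 61.5 CPM in Normal, 40.1 to 78.2 CPM in NMO and 48.7 to 112 CPM in NMO+CL. Of the 8 tested edgeR called 1, Fn1, a matrix gene, 5.47-fold higher in NMO+CL than in Normal (adjusted p = 0.0218). In the order of comparisons given for neutrophils, 0, 1 and 2 had an unadjusted p under 0.05. Basophil and mast cell markers, which mark the cells known for responding to IL-3, summed to at most 3.36 CPM in any library, 2 of 6 were at 0 throughout and none could be tested. The 7 border macrophage markers summed to 160 to 308 CPM in Normal, 10.8 to 194 CPM in NMO and 222 to 412 CPM in NMO+CL. Most of that sum was 1 gene, Cbr2, a carbonyl reductase gene, with 125 to 272 CPM in Normal, 0 to 159 CPM in NMO and 185 to 395 CPM in NMO+CL. Of the 6 tested 0 were called by edgeR, DESeq2 or limma-voom, with 0, 0 and 1 at an unadjusted p under 0.05. The 7 dendritic cell markers summed to 7.01 to 22.9 CPM in Normal, 13.3 to 33.1 CPM in NMO and 22.1 to 29.0 CPM in NMO+CL. Of these 4 were tested, and edgeR called 0 in any comparison. The 5 endothelial markers summed to 72.4 to 93.5 CPM in Normal, 49.6 to 82.9 CPM in NMO and 79.7 to 108 CPM in NMO+CL, and 1 of them, Kdr, a VEGF receptor gene, was higher in NMO+CL than in NMO (adjusted p = 0.0272) and Normal (adjusted p = 0.0418). The part of these cells in the beta chain result was not tested beyond these values.

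The alpha chain of the GM-CSF receptor, Csf2ra (chr19:61223957-61228429, minus strand), varied widely between libraries and passed the test in no comparison. It stood at 38.2, 163 and 143 CPM in Normal, at 127, 82.4 and 109 CPM in NMO and at 68.4, 219 and 281 CPM in NMO+CL. Replicate 1 was the lowest library in both Normal and NMO+CL, and all 3 groups overlapped. The log2 difference was -0.12 for NMO against Normal (95% interval -1.06 to 0.83, adjusted p = 0.983), 0.84 for NMO+CL against NMO (-0.11 to 1.79, adjusted p = 0.477) and 0.72 for NMO+CL against Normal (-0.23 to 1.67, adjusted p = 0.396). With no filter on low counts the last of these passed (0.72, adjusted p = 0.0246), and so did NMO+CL against NMO (0.83, adjusted p = 0.0153). As single libraries were left out, NMO against Normal ranged from -0.54 to 0.23. Without NMO+CL replicate 3 the difference was 0.44 against NMO and 0.32 against Normal, without Normal replicate 1 it was 0.31 against Normal, and without NMO+CL replicate 1 it was 1.24 and 1.12 (adjusted p = 0.134 and 0.0945). The ratio of beta chain to Csf2ra reads ran from 1.17 to 2.97 in Normal, from 1.18 to 2.11 in NMO and from 1.01 to 4.68 in NMO+CL, so the groups overlapped (exact permutation p = 0.9, 0.9 and 0.7 for NMO against Normal, NMO+CL against NMO and NMO+CL against Normal). The 3′ end of Csf2ra resembled at least 2054 other genes in part, but shared 0 of its 426 windows of read length exactly.

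The alpha chain of the IL-3 receptor, Il3ra (chr14:14346275-14356011, plus strand), was close to absent from the counts. The Normal libraries had 25, 0 and 0 reads of it, those of NMO 5, 1 and 4 and those of NMO+CL 0, 5 and 19. Most of its reads in Normal and NMO+CL came from 1 library each. A library with 0 reads allows up to 3 counts, or 0.359 to 0.505 CPM depending on the library, for counting error only. Csf2rb2, whose product serves IL-3, was thus read at 32.5 CPM or more in every library while the specific alpha chain reached at most 3.98 CPM.

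The ligands of the shared beta chain were not detectable: Csf2, Il3 and Il5, which encode GM-CSF, IL-3 and IL-5, had 0 reads in all 9 libraries. Csf3, for G-CSF, had 0 to 18 reads, and Il5ra, the IL-5 alpha chain, 0 to 14. Such counts describe the sorted cells only, not the tissue around them.

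Csf1r (chromosome 18, plus strand) had the most reads of the members and made up 96.5%, 94.9% and 91.7% of the reads of all 8 members in the Normal, NMO and NMO+CL groups. It stood at 8514, 11808 and 8931 CPM in Normal, at 7059, 8056 and 6398 CPM in NMO and at 4650, 6379 and 9283 CPM in NMO+CL. Every NMO library was below every Normal library, while the NMO+CL libraries overlapped both groups, with replicate 1 the lowest of all 9. The means were 9751 ± 1794, 7171 ± 835 and 6771 ± 2341 CPM (SD, n = 3).

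In the fit, Csf1r gave a log2 difference of -0.44 for NMO against Normal (95% interval -0.87 to -0.02, adjusted p = 0.504), of -0.53 for NMO+CL against Normal (-0.95 to -0.10, adjusted p = 0.121) and of -0.08 for NMO+CL against NMO (-0.51 to 0.34, adjusted p = 0.937). None passed. The difference in NMO+CL against Normal moved both ways with single libraries: it was -0.82 (adjusted p = 0.00694) without NMO+CL replicate 3, -0.32 (adjusted p = 0.371) without NMO+CL replicate 1 and -0.37 (adjusted p = 0.429) without Normal replicate 2.

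Microglial markers were read beside Csf1r. The 12 genes of the list summed to 30439 to 33510 CPM in Normal, 26807 to 30865 CPM in NMO and 18410 to 24072 CPM in NMO+CL, and 1, 4 and 9 of the 12 were lower in NMO against Normal, NMO+CL against NMO and NMO+CL against Normal, while edgeR called Csf1r in none of these and limma-voom called it in the last (adjusted p = 0.0362). P2ry12, the gene of the surface protein used for the sort, fell by 2.79 on the log2 scale in NMO+CL against Normal (adjusted p = 4.62e-07). Within sorted pools, fewer cells of a type and less RNA per cell cannot be told apart. The last 500 bases of Csf1r lie opposite the gene Hmgxb3, which had only 106 to 397 reads per library, and the use of strand in counting was not stated.

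Of the CSF1R ligands, Csf1 (chr3:107741048-107760469, minus strand) was low but tested, and Il34 (chr8:110741829-110805924, minus strand) was barely read. Csf1 stood at 12.1, 24.7 and 22.2 CPM in Normal, at 23.3, 29.3 and 18.3 CPM in NMO and at 41.6, 24.9 and 24.0 CPM in NMO+CL. The groups overlapped, with Normal replicate 1 the lowest and NMO+CL replicate 1 the highest. The log2 differences were 0.26 (95% interval -0.54 to 1.07) for NMO against Normal, 0.35 (-0.44 to 1.15) for NMO+CL against NMO and 0.62 (-0.18 to 1.42, adjusted p = 0.386) for NMO+CL against Normal. Single libraries moved all of these: NMO against Normal ranged from 0.00 (without Normal replicate 1) to 0.46, NMO+CL against NMO from 0.05 (without NMO+CL replicate 1) to 0.54, and NMO+CL against Normal from 0.32 (without NMO+CL replicate 1) to 0.82. Of Il34 the Normal libraries had 0, 12 and 0 reads, those of NMO 9, 0 and 21 and those of NMO+CL 4, 6 and 0, at most 3.36 CPM, and neuronal markers summed to 2.27 to 65.7 CPM in these libraries.

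Csf3r (chr4:126024550-126044440, plus strand), the G-CSF receptor, was the only tested member beside Csf1r with a lower mean in NMO+CL than in Normal. It stood at 49.2, 59.1 and 81.8 CPM in Normal, at 59.8, 53.5 and 98.0 CPM in NMO and at 53.5, 29.3 and 25.0 CPM in NMO+CL. NMO+CL replicates 2 and 3 were the lowest of the 9 libraries, and replicate 1 lay within the other groups. The log2 difference was -0.97 for NMO+CL against NMO (95% interval -1.66 to -0.28, adjusted p = 0.183) and -0.82 for NMO+CL against Normal (-1.51 to -0.13, adjusted p = 0.139), while NMO against Normal gave 0.15 (-0.53 to 0.83). Without NMO+CL replicate 1 the first pair were -1.37 (adjusted p = 0.0416) and -1.22 (adjusted p = 0.0296). The former was -0.64 (adjusted p = 0.482) without NMO replicate 3, and the latter -0.59 (adjusted p = 0.447) without Normal replicate 3.

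Neutrophil markers were read beside Csf3r too. In replicate order their sums were 536, 41.5 and 47.3 CPM in Normal, and 264, 102 and 384 CPM in NMO. In NMO+CL they were 1318, 270 and 508 CPM, where replicates 2 and 3 were the lowest in Csf3r. The part of neutrophils in the Csf3r values was not tested. The Csf3r count has a limit of its own: 12 of the 426 windows of read length in its last 500 bases are found exactly in 27 other genes, and reads with multiple alignments were counted.

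**Figure D3:**
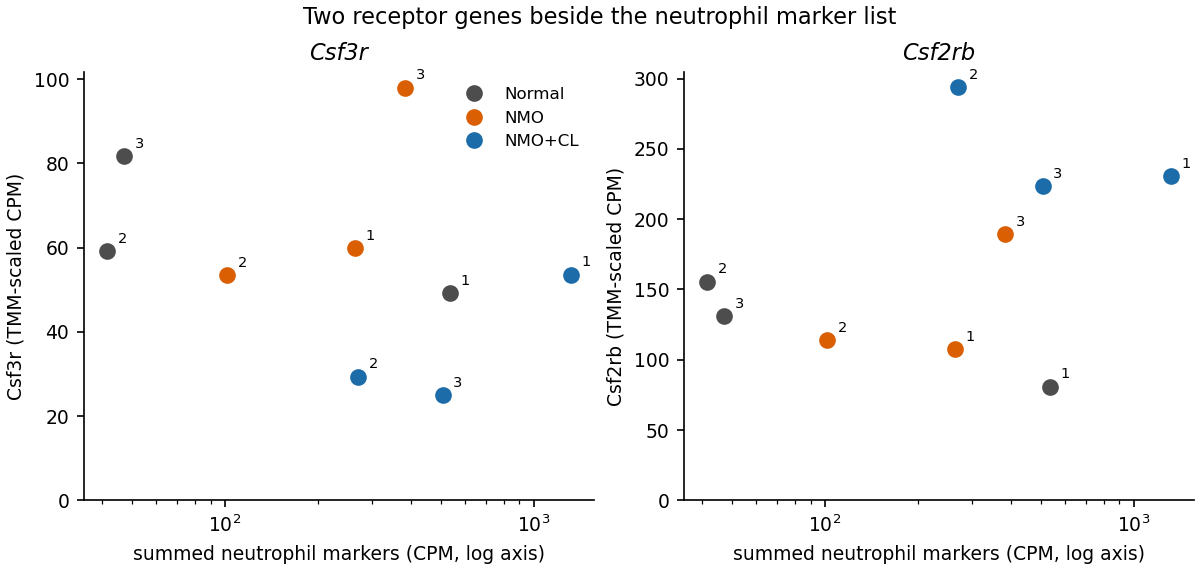
Csf3r (left) and Csf2rb (right), in TMM-scaled CPM, against the summed CPM of 10 neutrophil markers (log axis) in the 9 libraries, coloured by group and numbered by replicate. NMO+CL replicates 2 and 3 are lowest in Csf3r, and every NMO+CL library is above all others in Csf2rb. The part of neutrophils in either gene was not tested.

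Over the members as a whole, few passed and the share has to be read against all genes. In NMO against Normal 0 of 6 tested members were called, where 0.496% of all genes were, with 1 at an unadjusted p under 0.05 (Csf1r), beside 1169 of all 12292 genes. Csf1r was also the 1 member whose groups did not overlap, where 17.4% of all genes did not. In NMO+CL against NMO 0 of 6 were called against 1.59% of all genes, with 3 at an unadjusted p under 0.05, beside 1523 of all genes, and 2 whose groups did not overlap, against 17.1%. DESeq2 called 2 members in that comparison (Csf2rb and Csf2rb2) and limma-voom 1 (Csf2rb), and in NMO against Normal each called 0.

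In NMO+CL against Normal 2 of 6 members were called, both higher, where 9.23% of all genes were called, 4.79% higher and 4.43% lower, and 4 members had an unadjusted p under 0.05, beside 2747 of all genes. DESeq2 called the same 2 members there, and limma-voom called 3, with Csf1r as the other. The groups did not overlap for 2 of 6 members, against 28.7% of all genes. At the study's thresholds of 1.5-fold and an unadjusted p under 0.05, 0, 3 and 3 members passed in NMO against Normal, NMO+CL against NMO and NMO+CL against Normal (Csf2rb and Csf2rb2 higher and Csf3r lower in both of the latter), where 7.96%, 10.7% and 20.1% of all genes passed. The median log2 difference of the 6 members was 0.14, 0.59 and 0.67 in these comparisons, beside -0.01 for all genes in each. Each group enters more than 1 of these comparisons, so they are not independent.

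**Figure D4:**
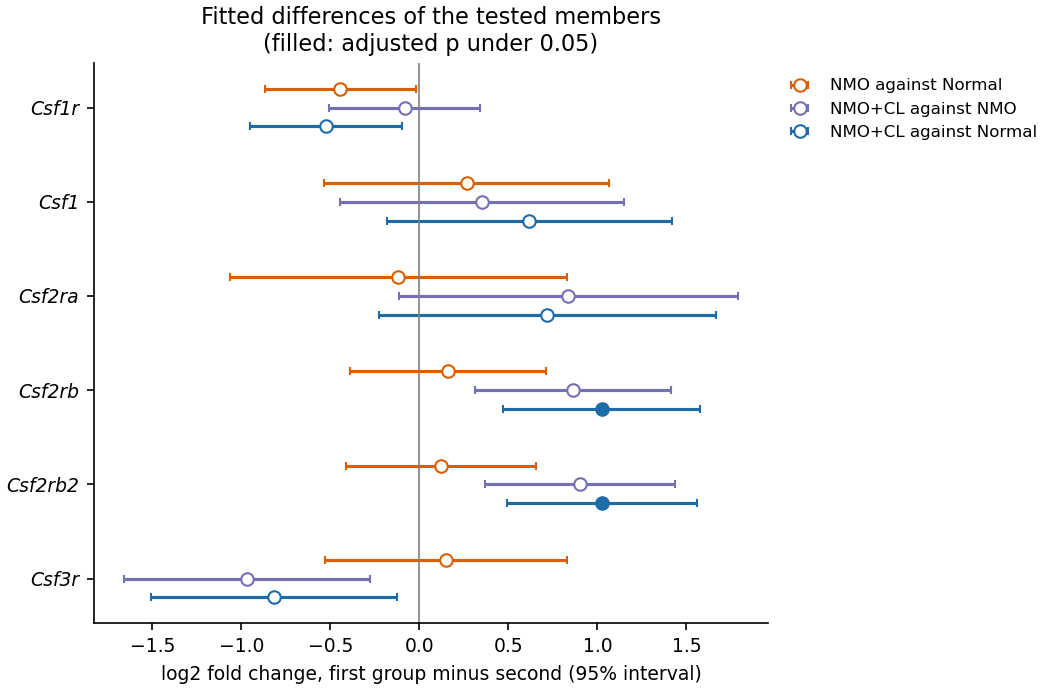
Fitted log2 fold change of the 6 tested members, first group minus second, in 3 comparisons, with 95% intervals; filled points have an adjusted p under 0.05. The filled points are Csf2rb and Csf2rb2 in NMO+CL against Normal, at 1.02 and 1.03.

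On a scale of mean CPM per kilobase of annotated exon over all 9 libraries, Csf1r was at 1368, the other 5 tested members were between 4.64 and 47.6, and Il34 and Il3ra were at 0.446 and 0.345. No order is given among the other tested members or between Il34 and Il3ra, since parts of it change with the group or with the division by length, and libraries that read 3′ ends do not gain reads with length.

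Genes of the surrounding pathways were taken from 5 lists of 60 genes in all, of which 53 were tested. In NMO against Normal and in NMO+CL against NMO 0 of them were called, and in NMO+CL against Normal 9 were, 7 higher and 2 lower, where 9.23% of all genes were called, 4.79% higher and 4.43% lower. At an unadjusted p under 0.05 there were 7, 10 and 15 of the 53, beside 1169, 1523 and 2747 of the 12292 genes. DESeq2 called 1 in the first comparison (Cebpa), 3 in the second (Fli1, Mcl1 and Runx1) and 12 in the third, and limma-voom called 0, 2 and 9.

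The list of the JAK-STAT arm used by the beta chain and CSF3R had 4 of 15 genes higher in NMO+CL than in Normal and 0 lower, with a list median of 0.34. Mcl1, a survival factor of the BCL2 family, stood at 311, 287 and 312 CPM in Normal, at 419, 320 and 430 CPM in NMO and at 618, 704 and 520 CPM in NMO+CL, so the NMO+CL libraries were above all others. It rose by a log2 difference of 1.02 (SE 0.183, adjusted p = 0.00166). Stat3, the transcription factor that CSF3R activates, rose by 1.02 (adjusted p = 0.0150), Socs3, the feedback inhibitor of CSF3R and of gp130 receptors, by 1.17 (adjusted p = 0.0108), and Pim1, a kinase gene induced by STAT proteins, by 1.39 (adjusted p = 0.0178). All of these also answer to cytokines outside the lists. Jak1, Bcl2l1, a further survival gene, and the phosphatase gene Ptpn11 had log2 differences of 0.05, 0.51 and 0.34 and did not pass. The mediators that the beta chain itself uses, named after their values were seen, did not pass in NMO+CL against Normal either: Jak2 differed by -0.19 (SE 0.330), Stat5a by 0.48 (SE 0.312) and Stat5b by -0.28 (SE 0.296). Cish, a STAT5 target, had 0 to 51 reads and differed by 1.37 (SE 1.72, adjusted p = 0.746).

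The list of transcription factors that bind the Csf1r gene had 2 of 7 higher and 2 lower. Cebpa, a myeloid regulator, stood at 183, 214 and 158 CPM in Normal, at 107, 116 and 92.5 CPM in NMO and at 73.0, 60.4 and 83.3 CPM in NMO+CL, so that the 3 groups did not overlap. It fell by 1.36 on the log2 scale in NMO+CL against Normal (adjusted p = 5.71e-04), and its difference of -0.82 in NMO against Normal did not pass (adjusted p = 0.104). Fli1, an ETS factor, fell by 0.99 in NMO+CL against Normal (adjusted p = 0.0101). Runx1 rose by 0.63 (adjusted p = 0.0480) and Ets2 by 1.10 (adjusted p = 0.0429). Spi1, which encodes PU.1, Irf8, its partner in microglia, and Cebpb had differences of -0.08, -0.08 and 0.86 and did not pass.

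The list of adaptors and kinases of CSF1R held 22 genes, all tested. In NMO+CL against Normal 1 was called higher and 0 lower, and 5 had an unadjusted p under 0.05. The gene called is not reported here. Among the others, the 3 with the highest counts did not pass in that comparison. The kinase gene Lyn, adaptor gene Tyrobp, whose product DAP12 couples to CSF1R, and lipid phosphatase gene Inpp5d differed by 0.21, 0.03 and -0.23. None of the 3 genes for shedding of the receptor was called or had an unadjusted p under 0.05 in any comparison, and DESeq2 and limma-voom called 0: Adam10 and Adam17, which encode the proteases, differed by 0.17 and -0.22, and Rhbdf2, which matures ADAM17, had only 1 to 90 reads and differed by 0.43. Of 13 related cytokines and receptors 6 were tested and 0 called, with 0, 1 and 2 at an unadjusted p under 0.05 in NMO against Normal, NMO+CL against NMO and NMO+CL against Normal, where DESeq2 called 0, 0 and 1 and limma-voom 0. Kitl and Flt3l, growth factors for related receptor kinases, differed by -0.89 and -0.09, and Sdc1, a proteoglycan that binds IL-34, by 0.79. Ptprz1, the other receptor of IL-34, had 0 to 25 reads.

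**Figure D5:**
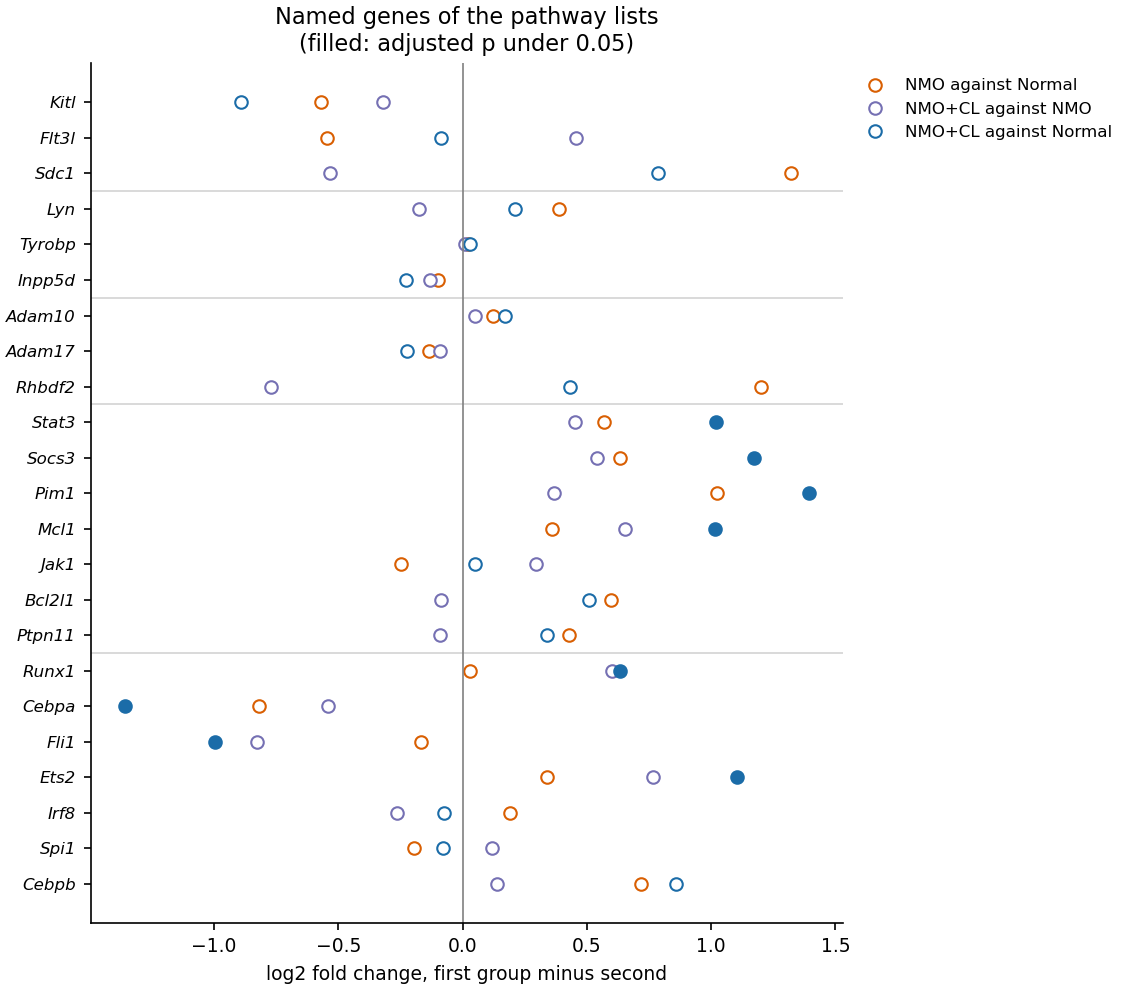
Fitted log2 fold change, first group minus second, of 23 pathway genes in 3 comparisons; grey lines part the lists (related cytokines and receptors, CSF1R adaptors and kinases, shedding, JAK-STAT arm, transcription factors), and filled points have an adjusted p under 0.05. The 8 filled points all belong to NMO+CL against Normal, 6 to the right of 0 and 2 (Cebpa and Fli1) to the left.

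These calls differed in how far they rested on single libraries. Mcl1 and Cebpa were called with each of the 9 libraries left out in turn. With NMO+CL replicate 2 left out, Fli1 was not called (adjusted p = 0.0587), and Socs3 lost its call when Normal replicate 1 (adjusted p = 0.0597) or Normal replicate 2 (0.0645) was left out. For Stat3 leaving out Normal replicate 1, leaving out Normal replicate 2 and leaving out NMO+CL replicate 2 gave adjusted p of 0.0918, 0.0716 and 0.0581. For Pim1 leaving out Normal replicate 1, leaving out Normal replicate 2 and leaving out NMO+CL replicate 1 gave 0.0726, 0.0972 and 0.0900. Runx1 and Ets2 were each lost in 6 of the 9 cases, at adjusted p up to 0.182 and 0.191. Of the 9 genes 4 were called without Normal replicate 2 and 4 without NMO+CL replicate 2.

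The genes whose log2 CPM over the 9 libraries was most like that of each member were found in a search of the 8841 tested genes that averaged 50 counts or more. For Csf2rb2 these were Ms4a6c (Pearson r = 0.961), Nol9, Fkbp5, Sorl1 and Ms4a6d (0.952), and for Csf2rb they were D17H6S56E-5 (0.967), Nfil3, Pds5a, Rpl37rt and Il17ra (0.937). Between Csf2rb and Csf2rb2 r was 0.838, the 94th closest gene to Csf2rb and the 165th closest to Csf2rb2. For Csf1r they were Grina (0.950), Ppard, Plekho1, Llgl1 and Hsd17b11 (0.937), for Csf1 Sec11a (0.968), Tstd2, Eif3m, Uchl3 and Tmod1 (0.916), for Csf2ra Rpl23 (0.974), Srek1, Fnbp4, 4930579G18Rik and Ndufa10 (0.943), and for Csf3r Acss1 (0.974), Trim34a, Liph, Ube2z and Gna13 (0.954). These values describe 9 points that share group, depth and library, and the highest of so many genes is high in any such search.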

How the data were processed

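RNA of sorted microglia was read in 9 libraries. The authors made QuantSeq 3′ libraries, sequenced single reads of 75 bases and aligned them with Bowtie2; bedtools then counted both uniquely and multiply aligned reads at each gene; the processing notes name the build mm10, and the use of strand is not given in the sources used here. The deposited values are these raw counts, whole numbers that sum to between 5788234 and 7837219 per library. Duplicate symbols were summed. Replicates differed by more than sampling noise. Counts of the ribosomal RNA gene Rn45s made up 16.0% of a library in NMO replicate 2 and 31.0% in Normal replicate 1, the lowest and highest shares. The part of this in the calls was not tested.

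The analysis used edgeR 4.0.16 in R 4.3.3: filterByExpr (minimum count 10), TMM, and a quasi-likelihood fit over all 9 libraries with 1 coefficient per group and F-tests (two-sided). The Benjamini-Hochberg adjustment ran over the 12292 tested genes of a comparison, and calls needed an adjusted p under 0.05. On simulated counts of these libraries, 115 of 200 genes changed by 4-fold in NMO against Normal were called, with 3 false calls. Alternatives were DESeq2 1.42.0, limma-voom (limma 3.58.1), other scalings and filters, the replicate block and leaving out each library. P values measure the spread between pools of mice. No source used here says that a replicate number marks shared animals or a shared day, and libraries were not paired.

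The members, the pathway lists and the marker lists were chosen with earlier results of these data known. Named were all 8 members, every pathway gene called in any comparison, the 3 others with the highest mean count per list, and the 5 genes most correlated with each member of mean count at least 50; genes that are not reported here stay in the counts. Sequences are from GENCODE M21 (GRCm38), compared with BLAST+ 2.17.0, and exact permutation tests used scipy 1.17.1. Windows at the 3′ end were those of the longest protein-coding transcript of each member.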

Additional observations from a re-analysis of the deposited data

How the results depend on the processing

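Of 453 values recomputed under the alternatives, 398 kept their direction and their side of the threshold, 31 lost a call, 13 gained one and 11 changed sign; the cause was not tested. Members called in NMO+CL against NMO numbered 0 in the analysis reported, 3 with no filter on low counts, 2 with DESeq2, 1 with limma-voom, 3 at 1.5-fold and an unadjusted p under 0.05, and 0 to 1 with single libraries left out. In NMO+CL against Normal they numbered 2, and 2 with DESeq2, 3 with limma-voom, 4 with no filter, 1 with the beta chain genes summed (which leaves 5 members) and 0 to 3 with single libraries left out (0 without Normal replicate 1, 0 without Normal replicate 3 and 0 without NMO+CL replicate 2). Pathway genes called in NMO against Normal numbered 0, and 1 with no filter, 1 with DESeq2 and 4 at 1.5-fold and an unadjusted p. In NMO+CL against NMO they numbered 0, and 3, 3 and 2 with no filter, DESeq2 and limma-voom, 8 at 1.5-fold and 0 to 1 with single libraries left out. In NMO+CL against Normal 9 became 4 to 9 with single libraries left out. The log2 difference of Csf2ra in NMO against Normal changed sign under limma-voom (0.11) and under the replicate block (0.21), and ranged from -0.54 to 0.23 over the left-out libraries. Over those, Csf1r in NMO+CL against NMO ran from -0.38 to 0.13, and in NMO against Normal Csf2rb ran from -0.16 to 0.37 and Csf3r from -0.18 to 0.36. Csf1r in NMO+CL against Normal was called with no filter (adjusted p = 0.0443) and under limma-voom (0.0362), and with no filter Csf2ra (0.0153), Csf2rb (0.00767) and Csf3r (0.0293) in NMO+CL against NMO and Csf2ra (0.0246) in NMO+CL against Normal were called too.

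Under the replicate block 0, 0 and 2 members were called in NMO against Normal, NMO+CL against NMO and NMO+CL against Normal, and 9 pathway genes in the last, as without it. Same-numbered libraries of different groups had correlations of -0.0148 to 0.0302 after removal of group means, so the numbers were not taken as pairs. Depth limits Il34, Il3ra and the cytokine genes, for which differences were not detectable.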
